A study of Mus musculus with 3 samples.

Results

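The neurons of the inner retina were followed through 32 marker genes, read on every array of a mouse retina series. Of these genes, 15 mark amacrine cells, 6 mark horizontal cells and 11 mark retinal ganglion cells. They were chosen by name, as known markers, and every probe whose RefSeq accession belongs to one of them was taken, which gave 40 of the 55681 probes on the array and 32 of the 21364 genes that could be named. The series holds 3 arrays of whole retina at postnatal day 12: 1 labelled Otx2 KI, 1 labelled Crx KO and 1 labelled wild-type. KI is the usual short form for knock-in and KO for knockout. The labels give no strain, no count of animals per RNA sample, no deleted exons and no locus for the Otx2 KI. With 1 array per genotype there was no replicate check, so all differences are described by size and no p-value is given.

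Amacrine cells are inhibitory interneurons of the inner plexiform layer that release GABA or glycine, and some of them also release acetylcholine or dopamine. Horizontal cells are interneurons that feed back onto photoreceptor terminals in the outer plexiform layer. Ganglion cells are the output neurons, whose axons form the optic nerve. All of these neurons are born before most rods. Crx and Otx2 are homeodomain factors of 1 family that act mainly in photoreceptors and bipolar cells, and loss of Otx2 from photoreceptor precursors is known in mice to turn them towards an amacrine-like fate.

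Values are scaled signals, that is Cy3 intensities after the scanner software's background subtraction, set to the wild-type array by each array's 75th percentile. A gene was read on its brightest probe, and a log2 difference of 1 or more in size, which is 2-fold, was the size used to call a gene. The scanner's own error model gave an error of 0.20 for the log2 difference of a typical gene, which covers the measurement of these RNA samples and not the spread between mice. The Crx probe read 1062 on the Otx2 KI array and 7177 on the Crx KO array, against 9790 on the wild-type array. The Otx2 probe read 63860 on the Otx2 KI array and 62981 on the Crx KO array, against 40886 on the wild-type array. The labels do not say which part of Crx or Otx2 was altered, so these probes give no check of the genotypes, and each array is called by its label.

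The inner retina markers stayed close to wild-type on both mutant arrays, as most measured genes did. On the Otx2 KI and on the Crx KO array all 32 genes were well above background, and on the wild-type array 31 were, Ptf1a being the exception. Of the 31 genes measured on both arrays of a comparison, 0 lay 2-fold or more from wild-type in Otx2 KI, where 3.88% of the 15805 genes measured on both arrays did. In Crx KO 0 of 31 did as well, where 5.38% of 16046 genes did. With genes that were dim on 1 array counted at their bound, 1 of 32 members was called in each comparison, and it was Ptf1a both times, against 4.48% of all genes in Otx2 KI and 6.42% in Crx KO. The median log2 difference of the members, with Ptf1a at its bound, was 0.06 in Otx2 KI and 0.09 in Crx KO, where all measured genes had medians of 0.03 and -0.01. In size, the members measured on both arrays differed from wild-type by a median of 0.08 in Otx2 KI and 0.16 in Crx KO, against 0.16 and 0.18 for all measured genes. The difference was smaller than its own scanner error for 25 of 31 members in Otx2 KI and for 21 of 31 in Crx KO. At 1.5-fold, 3 of 32 markers were called in Otx2 KI (Ptf1a, Th and Calb1), where 11.1% of all genes were, and 3 of 32 in Crx KO (Ptf1a, Th and Onecut2), where 15.2% of all genes were. With 32 members, the counts at 2-fold and at 1.5-fold lie near the shares of all genes and do not set the markers apart. The 2 comparisons share the wild-type array, so anything peculiar to that array stands in both.

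**Figure D1:**
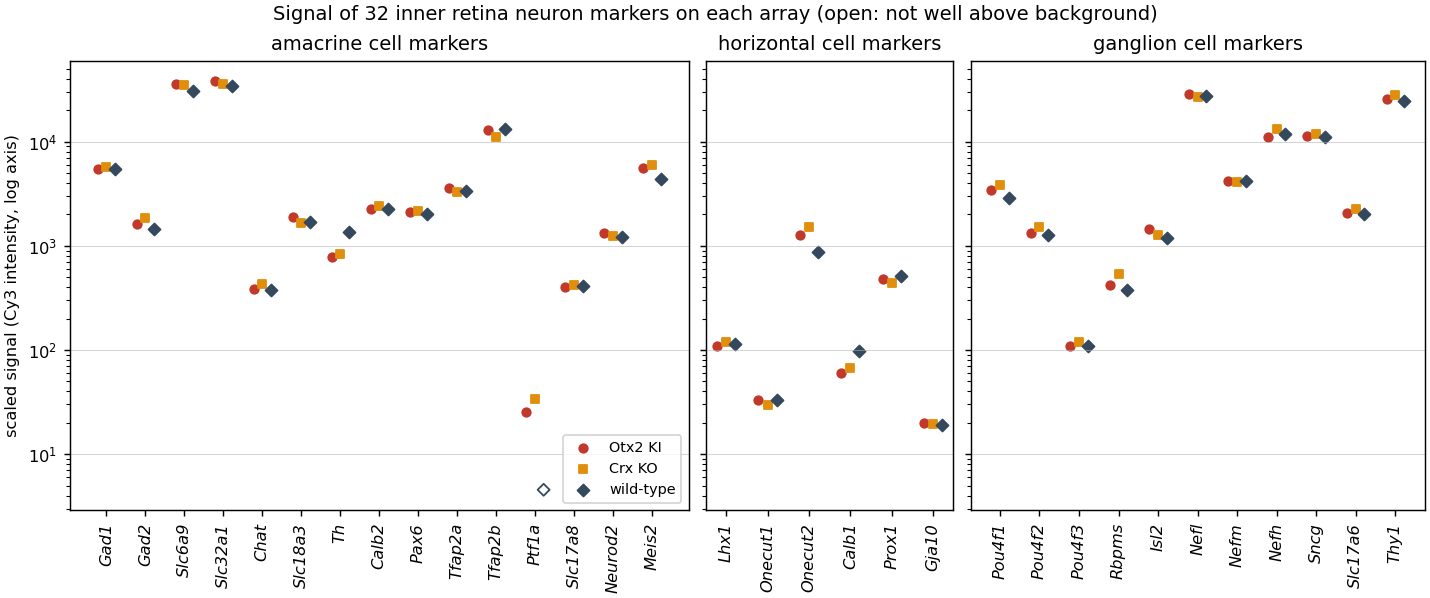
Scaled signal (log axis) of each of the 32 marker genes on the Otx2 KI (circles), Crx KO (squares) and wild-type (diamonds) arrays, 1 array each, with an open symbol where the probe was not well above background. For most genes the 3 symbols lie side by side, and Th, Ptf1a, Onecut2 and Calb1 are the ones where wild-type stands visibly apart.

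Genes for making and moving the inhibitory transmitters were nearly level across the arrays. Gad1, which encodes the larger of the enzymes that make GABA from glutamate, read 5479 in Otx2 KI and 5646 in Crx KO, against 5415 in wild-type. Its log2 differences from wild-type were 0.02 and 0.06, both within the error of 0.20. Gad2, the other glutamate decarboxylase, read 1613 in Otx2 KI and 1855 in Crx KO, against 1459 in wild-type, so that Crx KO was 1.27-fold higher (log2 0.35) and Otx2 KI 1.11-fold higher (log2 0.14). Slc32a1, the vesicular transporter that loads GABA and glycine, read 37647 in Otx2 KI and 35370 in Crx KO, against 34098 in wild-type, and its dimmer probe gave log2 0.05 in Otx2 KI and -0.02 in Crx KO. Slc6a9, the glycine transporter GlyT1 that marks glycinergic amacrine cells, read 35320 in Otx2 KI and 34768 in Crx KO, against 30672 in wild-type. Both of its probes were higher than wild-type on both mutant arrays, by log2 0.20 and 0.27 in Otx2 KI and by 0.18 and 0.29 in Crx KO. On their brightest probes the 4 genes were above wild-type on both mutant arrays, none by more than 1.27-fold. Under other settings Gad1 in Otx2 KI went as low as log2 -0.01 and Slc32a1 in Crx KO as low as -0.05.

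Gad1 was also the only member whose promoter window held TAATCC, the core site that Crx and Otx2 are known to bind. Windows of 250 bases before the start of transcription were taken from RefSeq (GRCm38.p6), where 23 of the 32 members had at least 1 window and 30 windows in all. TAATCC or its reverse complement GGATTA stood in 1 of these 30 windows, which is 3.33%, and in 6.25% of all 32851 windows of the same length. The related site TAATCT, or AGATTA on the other strand, stood in 4 of 30 (Gja10, Pax6, Slc6a9 and Sncg), or 13.3%, and in 7.31% of all windows. On their brightest probes all 5 of these genes were within 1.16-fold of wild-type on both mutant arrays. The Gad1 window, chr2:70561879-70562128 on the plus strand, is shown because it holds the match, which starts 203 bases before the start of transcription and is in capitals, on the opposite strand:
Gad1: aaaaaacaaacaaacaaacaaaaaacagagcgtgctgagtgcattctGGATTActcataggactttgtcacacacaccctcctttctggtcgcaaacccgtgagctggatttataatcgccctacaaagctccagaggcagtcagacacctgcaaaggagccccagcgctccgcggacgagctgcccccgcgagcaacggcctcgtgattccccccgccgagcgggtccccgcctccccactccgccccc

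Cholinergic amacrine cells, called starburst cells, shape the response of ganglion cells to motion. They are marked by a shared gene locus, in which Slc18a3, the vesicular acetylcholine transporter, lies inside Chat, the enzyme that makes acetylcholine, on chromosome 14. Chat read 381 in Otx2 KI and 429 in Crx KO, against 375 in wild-type. Slc18a3 read 1903 in Otx2 KI and 1647 in Crx KO, against 1681 in wild-type. The 2 genes thus differed in which mutant array was highest, Crx KO for Chat (log2 0.20 against wild-type) and Otx2 KI for Slc18a3 (log2 0.18), and each of these values was within the error. Slc5a7, the choline transporter of the same cells and not a member, had log2 differences of 0.06 in Otx2 KI and 0.03 in Crx KO on its brighter probe. Its dimmer probe read 168 in Otx2 KI and 240.0 in Crx KO, against 155 in wild-type, and gave 0.12 and 0.64, so its Crx KO value depends on the probe.

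Th, tyrosine hydroxylase, makes the precursor of dopamine and marks the few dopaminergic amacrine cells. It was the member with the lowest difference on both mutant arrays. It read 781 in Otx2 KI and 830 in Crx KO, against 1350 in wild-type. That is 1.73-fold lower in Otx2 KI (log2 -0.79) and 1.63-fold lower in Crx KO (log2 -0.70), each over 3 times the error of 0.20 but short of 2-fold. At 1.5-fold or more, 6.35% of all measured genes were lower in Otx2 KI and 8.25% in Crx KO. Th was read on 1 probe only, and across all processing settings its log2 difference stayed between -0.79 and -0.73 in Otx2 KI and between -0.71 and -0.61 in Crx KO. Other genes of the dopamine pathway, taken from a list of further amacrine genes, did not lie as low. Ddc, which turns L-DOPA into dopamine, had a log2 difference of -0.12 on both mutant arrays, and Slc18a2, the vesicular monoamine transporter, had -0.06 in Otx2 KI and 0.23 in Crx KO, with 0.19 and 0.52 on its dimmer probe.

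The Th promoter is known for a cyclic AMP response element, and the full palindrome TGACGTCA was searched for in the same windows. It stood in 3 of the 30 member windows (Isl2, Pax6 and Th) and in 1.55% of all windows. Isl2 and Pax6 did not lie low: Isl2 had log2 differences of 0.29 in Otx2 KI and 0.08 in Crx KO, and Pax6 had 0.07 and 0.09. The Th window, chr7:142899996-142900245 on the minus strand, is shown for the member that was lowest, with the palindrome in capitals 45 bases before the start of transcription:
Th: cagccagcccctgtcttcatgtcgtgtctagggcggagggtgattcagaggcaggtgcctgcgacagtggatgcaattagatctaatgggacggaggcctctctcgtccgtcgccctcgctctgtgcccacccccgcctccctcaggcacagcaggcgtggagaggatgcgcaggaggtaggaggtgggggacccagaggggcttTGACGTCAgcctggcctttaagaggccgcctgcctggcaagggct

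Ptf1a, a basic helix-loop-helix factor that commits progenitors to amacrine and horizontal cell fates, was the only member past 2-fold. It read 25.3 in Otx2 KI and 34.2 in Crx KO, against 4.56 in wild-type, where its probe was not well above background. Set against the lowest scaled signal that was well above background on the wild-type array, 10.2, it was at least 2.49-fold higher in Otx2 KI and at least 3.37-fold higher in Crx KO. All 3 signals lie near the floor of the arrays. With a normexp background correction, which adds 50 units to every spot, its log2 differences were 0.49 in Otx2 KI and 0.61 in Crx KO, both short of 2-fold, and without a filter on dim probes they were 2.47 and 2.91. At 2-fold or more, with bounds included, 1.53% of all genes were higher in Otx2 KI and 2.37% in Crx KO. The Ptf1a window, chr2:19445413-19445662 on the plus strand, is shown for the member with the highest difference and holds none of the 3 motifs searched:
Ptf1a: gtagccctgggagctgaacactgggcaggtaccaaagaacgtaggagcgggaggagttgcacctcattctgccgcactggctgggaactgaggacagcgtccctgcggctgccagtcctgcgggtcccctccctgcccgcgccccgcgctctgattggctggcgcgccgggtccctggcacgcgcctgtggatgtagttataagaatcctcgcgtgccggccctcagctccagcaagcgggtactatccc

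The other amacrine transcription factors were close to wild-type, except Meis2. Pax6, a master regulator of eye development that mature amacrine and ganglion cells keep on, read 2116 in Otx2 KI and 2145 in Crx KO, against 2020 in wild-type. Its dimmer probe gave log2 0.28 in Otx2 KI and 0.23 in Crx KO, where the brighter gave 0.07 and 0.09. Tfap2a, an AP-2 factor of amacrine and horizontal cells, read 3568 in Otx2 KI and 3273 in Crx KO, against 3316 in wild-type. Its dimmer probe, matched to another transcript, read 121 in Otx2 KI and 147 in Crx KO, against 96.4 in wild-type, and gave a log2 difference of 0.61 in Crx KO where the brighter probe gave -0.02. That gap of 0.63 was the widest between probes of 1 member, so for Tfap2a the Crx KO value depends on the probe. Tfap2b, its amacrine paralogue, read 12816 in Otx2 KI and 11169 in Crx KO, against 13105 in wild-type, and its log2 difference of -0.23 in Crx KO was about the size of the error. Neurod2, a factor of a subset of amacrine cells, had log2 differences of 0.12 in Otx2 KI and 0.03 in Crx KO. Meis2, a homeodomain factor of GABAergic amacrine cells, read 5535 in Otx2 KI and 5990 in Crx KO, against 4325 in wild-type. It was 1.28-fold higher in Otx2 KI (log2 0.36) and 1.38-fold higher in Crx KO (log2 0.47), both beyond the error of 0.20 and both short of 1.5-fold.

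Subtype markers of amacrine cells were level on their brightest probes. Calb2, the calcium-binding protein calretinin found in several amacrine and ganglion cell types, read 2251 in Otx2 KI and 2402 in Crx KO, against 2232 in wild-type. Slc17a8, the vesicular glutamate transporter VGLUT3 of glutamatergic amacrine cells, read 403 in Otx2 KI and 421 in Crx KO, against 409 in wild-type, and its dimmer probe gave log2 -0.19 in Otx2 KI and 0.21 in Crx KO. Over the 15 amacrine genes, with Ptf1a at its bound, the Otx2 KI median was 0.11, with 12 above wild-type and 3 below. The Crx KO median was 0.06, with 11 above and 4 below.

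**Figure D2:**
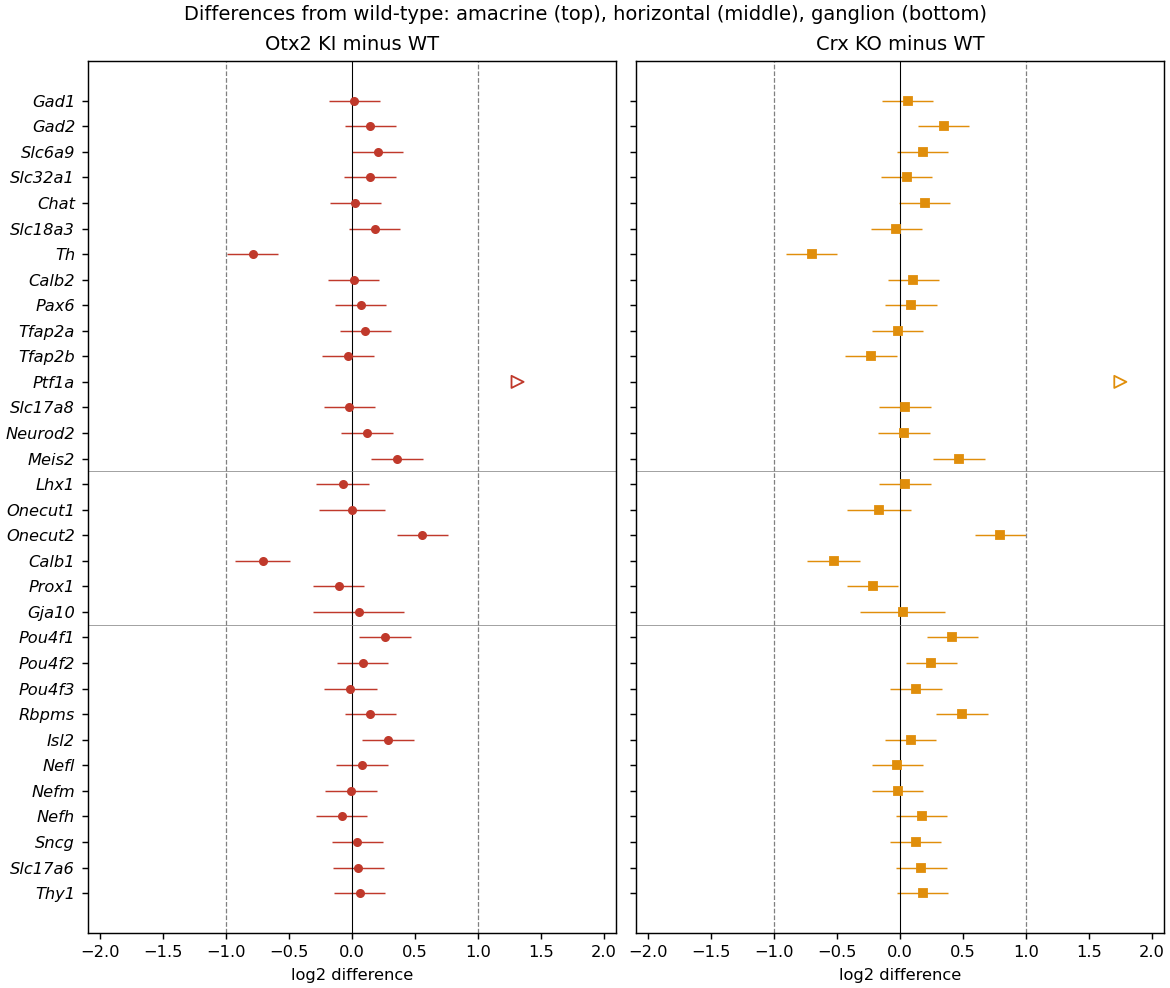
Log2 difference from wild-type of each marker in Otx2 KI (left, circles) and Crx KO (right, squares), with bars for the scanner software's error of the difference. Open triangles mark Ptf1a, a lower bound because wild-type was dim, and dashed lines mark 2-fold. All other markers lie inside the dashed lines, with Th and Calb1 lowest and Onecut2 highest among them.

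The horizontal cell list held both a marker below wild-type and a marker above it. Calb1, for calbindin, a calcium-binding protein that labels horizontal cells in the mouse, read 59.7 in Otx2 KI and 67.8 in Crx KO, against 97.6 in wild-type. It was 1.64-fold lower in Otx2 KI (log2 -0.71) and 1.44-fold lower in Crx KO (log2 -0.53), against errors of 0.22 and 0.21. With normexp the differences were -0.40 and -0.32. Onecut2, a factor that acts with its paralogue Onecut1 in making horizontal cells, read 1279 in Otx2 KI and 1511 in Crx KO, against 869 in wild-type. It was 1.47-fold higher in Otx2 KI (log2 0.56) and 1.74-fold higher in Crx KO (log2 0.80). At 1.5-fold or more, 3.66% of all measured genes were higher in Otx2 KI and 5.02% in Crx KO. Across all settings Onecut2 lay between log2 0.49 and 0.61 in Otx2 KI and between 0.77 and 0.83 in Crx KO.

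The remaining horizontal cell genes differed from wild-type by less than 1.17-fold. Onecut1 read 33.1 in Otx2 KI and 29.6 in Crx KO, against 33.1 in wild-type, so its differences (log2 0.00 and -0.16) did not follow those of Onecut2. Lhx1, the LIM homeodomain factor that places horizontal cells in their layer, read 109 in Otx2 KI and 118 in Crx KO, against 115 in wild-type. Prox1, a homeodomain factor that horizontal cells need and that AII amacrine and bipolar cells also carry, read 476 in Otx2 KI and 441 in Crx KO, against 513 in wild-type. Gja10, the connexin of horizontal cell gap junctions, read 19.8 in Otx2 KI and 19.4 in Crx KO, against 19.1 in wild-type, near the floor, where the error of its differences was 0.36 and 0.34. Over the 6 horizontal cell genes the median was -0.04 in Otx2 KI, with 2 above wild-type and 4 below. In Crx KO it was -0.07, with 3 above and 3 below.

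Ganglion cell genes spanned the narrowest range of the 3 marker lists, with log2 differences from -0.08 to 0.29 in Otx2 KI and from -0.02 to 0.49 in Crx KO. Pou4f1, the Brn3a factor of ganglion cell maturation, read 3460 in Otx2 KI and 3855 in Crx KO, against 2887 in wild-type. It was 1.20-fold higher in Otx2 KI (log2 0.26) and 1.34-fold higher in Crx KO (log2 0.42). Pou4f2, the Brn3b factor that ganglion cells need to survive and grow axons, read 1338 in Otx2 KI and 1500 in Crx KO, against 1262 in wild-type. Pou4f3, the third Brn3 gene, read 109 in Otx2 KI and 121 in Crx KO, against 110 in wild-type. Within the family Crx KO was the highest array for every gene, with log2 differences from wild-type of 0.42, 0.25 and 0.13 for Pou4f1, Pou4f2 and Pou4f3. Isl2, a LIM homeodomain factor of a subset of ganglion cells, had its highest signal in Otx2 KI, with 1461 in Otx2 KI and 1270 in Crx KO, against 1198 in wild-type.

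Rbpms, an RNA-binding protein found in nearly all ganglion cells, read 419 in Otx2 KI and 533 in Crx KO, against 379 in wild-type. Crx KO was thus 1.41-fold higher than wild-type (log2 0.49), the highest value of the ganglion cell list. The other 2 Rbpms probes gave 0.06 and 0.27 in Crx KO, so this value also depends on the probe, and with all probes averaged it was 0.27. Thy1, a surface glycoprotein of ganglion cells, read 25644 in Otx2 KI and 27867 in Crx KO, against 24604 in wild-type. Sncg, gamma-synuclein, read 11260 in Otx2 KI and 11922 in Crx KO, against 10934 in wild-type. Slc17a6, the vesicular glutamate transporter VGLUT2 with which ganglion cells signal to the brain, read 2069 in Otx2 KI and 2248 in Crx KO, against 1998 in wild-type. These last 3 genes were higher than wild-type by log2 0.04 to 0.06 in Otx2 KI and by 0.12 to 0.18 in Crx KO, always within the error, and under other settings Thy1 in Otx2 KI went as low as -0.01.

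The neurofilament genes, which build the axons of ganglion cells, were level. Nefl, the light chain, read 28797 in Otx2 KI and 26914 in Crx KO, against 27281 in wild-type. Nefm, the medium chain and the neighbour of Nefl among the members on chromosome 14, was printed at 10 spots on each array. Those spots ran from 4040 to 4228 in Otx2 KI and from 3890 to 4338 in Crx KO, against 4045 to 4405 in wild-type, so the arrays overlapped. The SD between spots was 0.02 in Otx2 KI and 0.05 in Crx KO, against 0.04 in wild-type, on the log2 scale, and the differences from wild-type were -0.01 and -0.02. Nefh, the heavy chain, read 11104 in Otx2 KI and 13252 in Crx KO, against 11755 in wild-type. Its second probe gave log2 -0.03 in Otx2 KI and 0.09 in Crx KO, where the first gave -0.08 and 0.17. Over the 11 ganglion cell genes the Otx2 KI median was 0.06, with 8 above wild-type and 3 below. The Crx KO median was 0.17, with 9 above and 2 below. In the whole tissue, fewer cells of a type and less RNA per cell cannot be told apart, and the same holds for more of either.

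**Figure D3:**
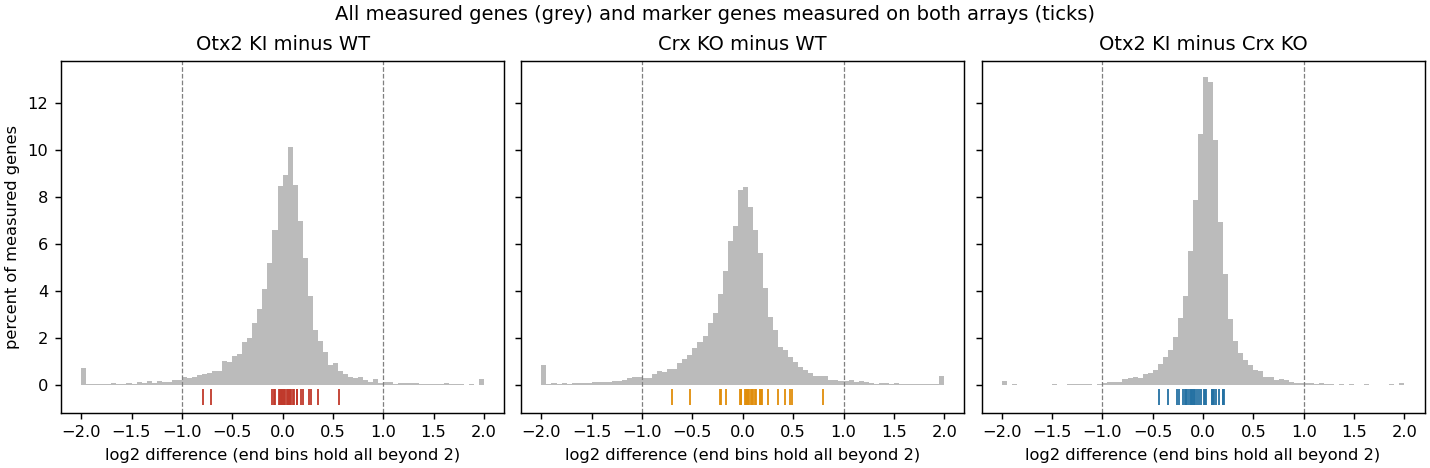
Percent of all measured genes (grey bars) by log2 difference in Otx2 KI minus wild-type, Crx KO minus wild-type and Otx2 KI minus Crx KO, with ticks under the axis for the marker genes measured on both arrays and dashed lines at 2-fold. In every panel all ticks fall between the dashed lines.

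The mutant arrays were also set directly against each other, a comparison that does not use the wild-type array. All 32 markers were measured on both, and 0 differed by 2-fold or more, where 1.32% of 15802 measured genes did. At 1.5-fold the count was 0 of 32 as well, where 4.75% of all genes differed. The log2 differences of Otx2 KI minus Crx KO ran from -0.44 for Ptf1a and -0.35 for Rbpms to 0.20 for Tfap2b and Isl2 and 0.21 for Slc18a3. The medians were -0.04 for amacrine, -0.04 for horizontal and -0.12 for ganglion cell genes, where all measured genes had 0.04. Of the ganglion cell genes 3 were higher in Otx2 KI and 8 were lower, and for 9 of 11 the difference was within the error. Th differed by log2 -0.09, Calb1 by -0.18 and Onecut2 by -0.24, each smaller in size than its differences from wild-type. These genes were named for standing apart from the shared wild-type array, so that order was largely set by the choice. Over all measured genes the median size of the difference was 0.11 between the mutant arrays. Against wild-type it was 0.16 in Otx2 KI and 0.18 in Crx KO.

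Lists of further genes of the same neurons had medians near 0 too. Of 20 other amacrine genes, 19 were measured in both comparisons with wild-type and Nos1, a nitric oxide synthase, was not well above background on any array. Their median was 0.06 in Otx2 KI and 0.09 in Crx KO. Of the peptide genes Vip, Npy, Tac1 and Sst, Vip and Npy lay farthest from wild-type in Crx KO, in opposite directions. Tac1 had log2 differences of 0.05 in Otx2 KI and 0.32 in Crx KO, and Sst had 0.10 and 0.13. Vip, vasoactive intestinal peptide, read 427 in Otx2 KI and 707 in Crx KO, against 388 in wild-type. Npy, neuropeptide Y, read 2820 in Otx2 KI and 1741 in Crx KO, against 3170 in wild-type, 1.82-fold lower in Crx KO (log2 -0.86). At 1.5-fold or more, 5.02% of all measured genes were higher in Crx KO and 8.25% were lower.

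Of 15 other ganglion cell genes all were measured, with medians of 0.04 in Otx2 KI and -0.07 in Crx KO. Atoh7, the factor that makes progenitors able to become ganglion cells, was the only gene past 2-fold. It read 24.8 in Otx2 KI and 32.2 in Crx KO, against 15.1 in wild-type, so that Crx KO was 2.14-fold higher (log2 1.10) and Otx2 KI 1.65-fold higher (log2 0.72), near the floor and only 0.27 and 0.16 on the log2 scale with normexp. Opn4, the melanopsin of light-sensitive ganglion cells, read 117 in Otx2 KI and 114 in Crx KO, against 103 in wild-type. Of 3 other horizontal cell genes 0 were past 2-fold, with medians of 0.01 in Otx2 KI and -0.13 in Crx KO, and Sall3, a zinc finger gene, read 41.0 in Otx2 KI and 55.8 in Crx KO, against 61.3 in wild-type, or log2 -0.58 in Otx2 KI.

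A list of 16 genes for receptors of the transmitters of amacrine cells, with the scaffold gene Gphn and the acetylcholine-splitting enzyme gene Ache, had 15 of 16 within 2-fold in each comparison with wild-type and medians of 0.00 in Otx2 KI and 0.03 in Crx KO. Chrna3, a nicotinic acetylcholine receptor subunit, was the exception. It read 133 in Otx2 KI and 123 in Crx KO, against 54.5 in wild-type, which is 2.44-fold higher in Otx2 KI and 2.26-fold higher in Crx KO. With normexp both values were short of 2-fold, at log2 0.76 and 0.72. Chrna6, a subunit of the same family, had log2 differences of -0.04 in Otx2 KI and 0.02 in Crx KO. Gabrr1, a GABA receptor subunit of bipolar cells, and Glra1, a glycine receptor subunit, lay lower by similar amounts, with -0.34 and -0.37 in Otx2 KI and -0.34 for each in Crx KO.

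**Figure D4:**
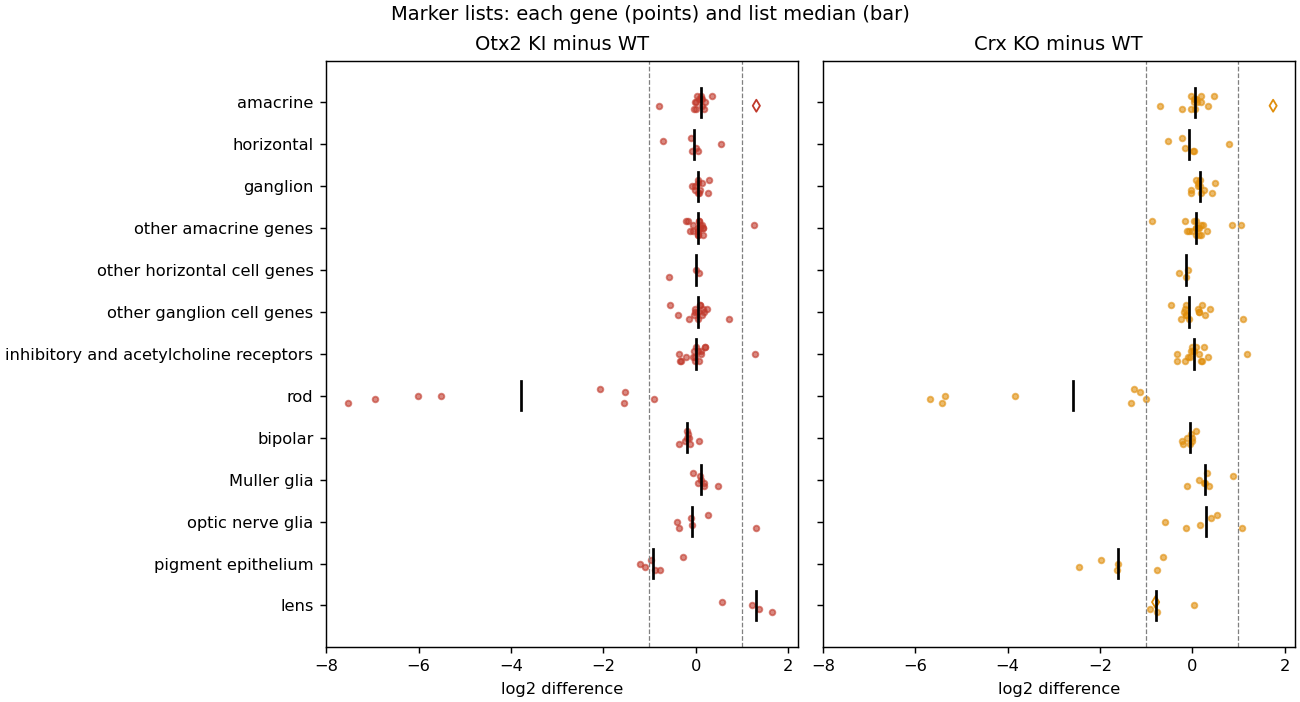
Log2 difference from wild-type of every gene (points) in the 3 marker lists and the 10 lists around them, for Otx2 KI (left) and Crx KO (right), with a black bar at each list's median, open diamonds for bounds and dashed lines at 2-fold. The rod list runs far to the left on both arrays, while the inner retina lists gather around 0.

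Among markers of other cells in the same RNA, the rod, pigment epithelium and lens lists lay much farther from wild-type, and the bipolar and Muller glia lists did not. All 8 rod genes were lower than wild-type on both mutant arrays, and 7 passed 2-fold in Otx2 KI and 8 in Crx KO, with medians of -3.79 and -2.59. Their summed scaled signal was 124171 in Otx2 KI and 136846 in Crx KO, against 570474 in wild-type. Of 8 bipolar genes 0 were past 2-fold, with medians of -0.18 in Otx2 KI and -0.04 in Crx KO, and of 7 Muller glia genes 0 were past 2-fold, with medians of 0.12 and 0.28. All 6 pigment epithelium genes were below wild-type on both, with medians of -0.92 and -1.62 and summed signals of 4992 in Otx2 KI and 3598 in Crx KO, against 10663 in wild-type. Lens genes, of which 4 of 6 could be compared, had a median of 1.30 in Otx2 KI and -0.78 in Crx KO, with summed signals of 709 in Otx2 KI and 198 in Crx KO, against 272 in wild-type. Of 7 optic nerve glia genes 6 were measured, with medians of -0.09 in Otx2 KI and 0.29 in Crx KO and summed signals of 37754 and 41682, against 33775 in wild-type. The part of these shifts in the differences of the inner retina markers was not tested. When each array was centred on its bipolar and Muller glia genes in place of the 75th percentile, the medians of the amacrine, horizontal and ganglion cell lists were 0.16, 0.02 and 0.11 in Otx2 KI and 0.07, -0.06 and 0.18 in Crx KO.

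**Figure D5:**
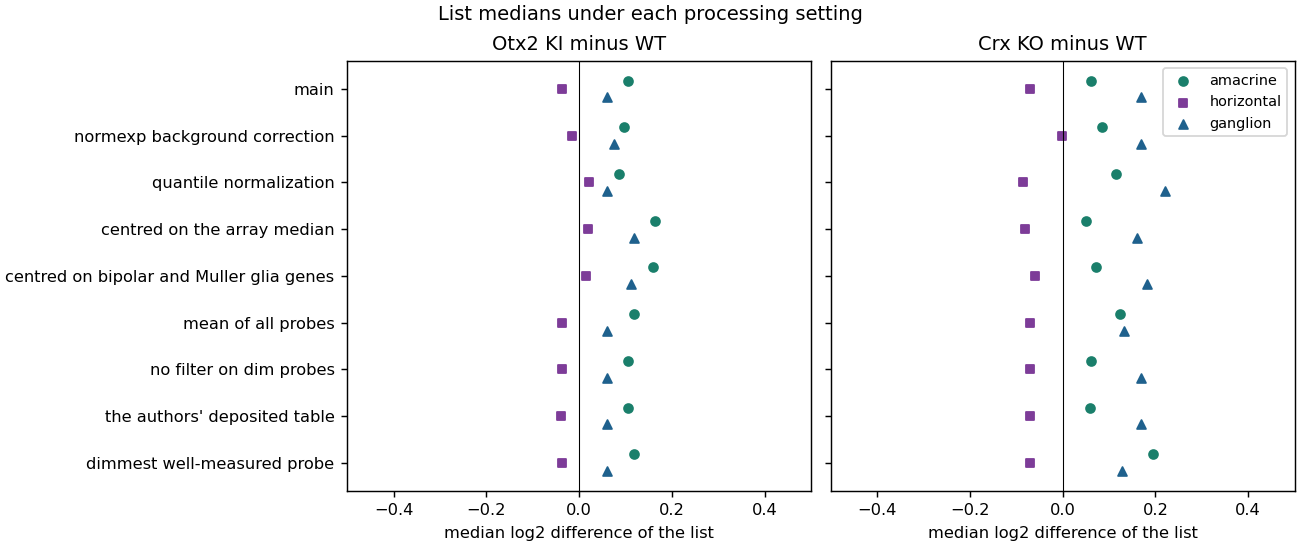
Median log2 difference from wild-type of the amacrine (circles), horizontal (squares) and ganglion cell (triangles) lists under the reported setting (main) and each other setting, for Otx2 KI (left) and Crx KO (right). Across settings the medians run from -0.04 to 0.16 in Otx2 KI and from -0.09 to 0.22 in Crx KO.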

How the data were processed

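The authors measured RNA from postnatal day 12 retinas on 1-colour Agilent arrays, with Cy3 labelling per the labels' protocols. The deposited scanner files hold an intensity for each spot, written by Agilent Feature Extraction 12.0.3.1 for an array design on mm9, per the file headers. The file headers put all 3 arrays on the same slide and in the same scan, so position on the slide and genotype cannot be told apart. The authors' deposited value table holds the same intensity times 1 constant per array (2.54 for Otx2 KI, 2.61 for Crx KO and 2.49 for wild-type), with column medians of 125.7, 135.8 and 129.8, so it is on a linear scale without centring. The source of the constants is not given here.

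Spots for controls and spots called outliers (132, 126 and 136 on the Otx2 KI, Crx KO and wild-type arrays) were left out, none of them of a marker gene, and 0 spots were saturated. Between 63.5% and 67.1% of spots were well above background. Each array's log2 processed signal was reduced by its 75th percentile. Spots of a probe were averaged. Accessions without versions were matched to RefSeq genes of GRCm38.p6, which named 28325 of 55681 probes; probes with no such match are not used here. A gene was read on the probe with the highest mean, and the other probes of marker genes are given beside it. A gene dim on 1 array entered at a bound, set against its own dim signal or that array's lowest well-measured scaled signal, whichever was higher (12.4 in Otx2 KI, 8.33 in Crx KO and 10.2 in wild-type). The number of arrays limits the precision.

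Every member is named. Of the 96 genes in 10 further lists, the rule names each gene at 2-fold or more in any comparison. This was kept for the inner retina, receptor and optic nerve glia lists, while rod, pigment epithelium and lens genes are given by counts, medians and sums. Other genes of the lists were named after their values were seen. Results of some genes of these lists are not reported here. The members and lists were chosen with earlier results of these data known. Steps were tested on simulated data. The scripts ran in Python 3.11.15 with scipy 1.17.1, pandas 2.3.3, numpy 2.4.6 and matplotlib 3.10.9. Alternatives were normexp background correction, a normal plus exponential model fitted by maximum likelihood to the spot and local background medians because the files hold no spot means, quantile normalization, other centrings, other probe rules, no filter on dim probes, the authors' table and a 1.5-fold threshold. Centring on bipolar and Muller glia genes used the median of those genes' differences from wild-type, a form chosen after seeing the data, as were the medians used for normexp and the rule of the dimmest probe.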

Additional observations from a re-analysis of the deposited data

How the results depend on the processing

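Over all alternatives, 752 of 768 values of single marker genes moved by less than the scanner error of a log2 difference (0.20) and 16 moved by more, and 0 of the called marker genes changed sign. With normexp the count of called markers was 0 in Otx2 KI and 0 in Crx KO, against 1 in each as reported, because Ptf1a came within 2-fold. At 1.5-fold the count was 3 in Otx2 KI (Ptf1a, Th and Calb1) and 3 in Crx KO (Ptf1a, Th and Onecut2). The list medians stayed between -0.04 and 0.16 in Otx2 KI and between -0.09 and 0.22 in Crx KO, and of these only the horizontal cell median in Otx2 KI changed sign, between -0.04 and 0.02. Centring on bipolar and Muller glia genes, in a form chosen after seeing the data, gave 0.16 for the amacrine list in Otx2 KI. The probe matters for Tfap2a, whose Crx KO value was 0.30 with its probes averaged, and for Rbpms. The dimmest probe rule was chosen after seeing the data, and under it the myelin gene Mbp in Otx2 KI turned to log2 -0.18; the cause was not tested. Signal over background limits Ptf1a, Gja10, Onecut1 and Calb1 most. No paired analysis was possible because each genotype has 1 array.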

Other observations

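Glial genes of the optic nerve, where ganglion cell axons gain their myelin, were looked at beside the ganglion cell markers. Mbp, myelin basic protein, read 9424 in Otx2 KI and 8073 in Crx KO, against 3824 in wild-type on its brightest probe. It was 2.46-fold higher in Otx2 KI (log2 1.30) and 2.11-fold higher in Crx KO (log2 1.08). A second Mbp probe gave log2 1.17 in Otx2 KI and 1.22 in Crx KO, while the third, dim at 18.3 in Otx2 KI and 23.0 in Crx KO, against 20.8 in wild-type, gave -0.18 and 0.14. The myelin genes Mag and Mog did not share this. Mag, myelin-associated glycoprotein, had log2 differences of -0.10 in Otx2 KI and 0.41 in Crx KO, and Mog, myelin oligodendrocyte glycoprotein, had -0.40 and -0.59. The oligodendrocyte factor Olig2 was not well above background on any array. Gfap, the filament protein of astrocytes and of reactive Muller glia, was at 0.27 in Otx2 KI and 0.53 in Crx KO.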
